A study of Mus musculus with 4 samples.

Results

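A set of 10 genes that code mostly for ligands of T cell checkpoint and costimulatory receptors were followed across the leukocytes of mouse 20967 melanomas. The 10 genes were chosen by name from the 32285 genes measured, and all 10 were found: Cd274, Pdcd1lg2, Cd80, Cd86, Lgals9, Pvr, Nectin2, Vsir, Icosl and Cd40. Line 20967 was derived from C57BL/6 mice with the Nras+LSL-G12D;Tyr::CreERT2+/o genotype, in which the Tyr promoter drives an inducible Cre in melanocytes and so switches on the Nras G12D oncogene. The cells were injected intradermally into wild-type C57BL/6 mice, whose age was not given in the sources used here. Clobetasol propionate, a strong glucocorticoid (GC) for use on the skin, was given to 5 of 10 tumors and a control preparation to the other 5, and all were collected within days of the start of treatment. Live CD45+ cells of each tumor carried a hashtag antibody that names the tumor, and were pooled by group and read in 1 droplet channel per group. Treatment and channel therefore split the tumors in the same way and cannot be told apart. All tumors came from 1 cell line, so the groups model 1 melanoma only.

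T cells respond to antigen through their receptor, and ligands on the presenting cell set whether that response grows or stops. CD80 and CD86 bind CD28, which promotes activation, and CTLA-4, which restrains it, and ICOS ligand (Icosl) binds the CD28 relative ICOS. PD-L1 (Cd274) and PD-L2 (Pdcd1lg2) bind PD-1 and restrain activated T cells, and PD-L1 is induced by interferon-γ. The poliovirus receptor CD155 (Pvr) and CD112 (Nectin2) bind activating CD226 and inhibitory TIGIT, galectin-9 (Lgals9) is a ligand of TIM-3, and VISTA (Vsir) restrains T cells from myeloid and T cells alike. CD40 (Cd40) differs in kind, as a receptor on dendritic cells, macrophages and B cells that is triggered by CD40 ligand on helper T cells and licenses dendritic cells to prime CD8+ T cells.

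The promoters of Cd274, Cd80 and Lgals9 are shown as examples. Each of these genes differed between groups in a comparison given further on and has an entry in the RefSeq table. The same holds for Pdcd1lg2, whose promoter is not shown. Each stretch holds the 90 bases from 120 to 31 bases before the RefSeq start, in the 5′ to 3′ direction of the gene, on build GRCm38.p6. The RefSeq start of Cd80, at base 38458933, lies 3372 bases inside the GENCODE gene whose bounds are given further on, so its stretch is the promoter of that start alone, while for Cd274 and Lgals9 the 2 annotations place the start within 22 bases of each other. Capitals mark a match to the core of the interferon-stimulated response element (ISRE), and a stretch in lower case has no match.
Cd274, chr19:29367318-29367407, plus strand: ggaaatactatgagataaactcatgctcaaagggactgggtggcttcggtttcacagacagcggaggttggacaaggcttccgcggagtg
Cd80, chr16:38458813-38458902, plus strand: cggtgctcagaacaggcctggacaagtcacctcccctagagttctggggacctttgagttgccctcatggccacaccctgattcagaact
Lgals9, chr11:78984955-78985044, minus strand: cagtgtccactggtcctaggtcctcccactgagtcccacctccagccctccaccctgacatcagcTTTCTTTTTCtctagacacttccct
RefSeq windows of 250 bases before to 50 bases after the start were found for 7 of the 10 genes, all but Cd40, Cd86 and Pvr. On both strands, the gamma-activated sequence (GAS, TTC and GAA set 3 bases apart) was in 0 of these 7 windows and in 8.30% of all 32851 windows, the ISRE core was in 1 (Lgals9) and in 3.44% of all, and the glucocorticoid response element was in 0 and in 0.0487% of all. The Lgals9 window held the ISRE core at bases -55 to -46 and again at bases 15 to 24 from the start. These are matches of letters and say nothing of the binding of a factor. The glucocorticoid response element was searched only as AGAACA and TGTTC set 3 bases apart, so partial matches were not counted.

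The control pool gave 3803 cells (2004 myeloid and 1799 lymphoid, median 7440 UMIs, the unique molecular identifiers that count captured RNA molecules) and the GC pool 305 (159 and 146, median 9163 UMIs). No barcode was shared between the channels. A level is given as mean UMIs per 10000 UMIs of a cell, averaged over the cells of 1 class in 1 tumor, and the tumor is the replicate (n). Means over tumors are given with the SD and, unless stated, are restricted to tumors that held 10 or more cells of that class. The class names are those of the authors' clusters, with the 3 monocyte clusters and CD8 clusters 1 to 3 each joined. In controls, the mature dendritic cell list (10 genes) summed to 137 to 167 per 10000 in cluster DC 1, the macrophage list (7 genes) to 54.0 to 73.5 in tumor-associated macrophages (TAMs), the neutrophil list (6 genes) to 347 to 594 in neutrophils and the CD8 T cell list (3 genes) to 15.9 to 17.1 in CD8+ T cells. Cluster DC 2 held both conventional (7.65 to 14.7) and plasmacytoid (4.19 to 27.9) dendritic cell markers and is called by its cluster name. In the eosinophil cluster the eosinophil list summed to 11.9 to 16.4 with Epx at 0, while the neutrophil list summed to 67.6 to 130 per 10000, and at a median of 873 UMIs per cell it is the shallowest class. Cluster CD4 held B cell markers in controls (6 genes, sum 1.14 to 8.50 per 10000, mean 3.83), while their mean was at or below 0.0755 in CD8+ T cells, Tregs and NK cells, and was 0 in the 10 GC cells of cluster CD4.

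By the mean over control tumors, both PD-1 ligands were highest in DC 1, and Tregs held the most of the T cells. Cd274 (chromosome 19, 29367455 to 29388095, plus strand) stood at 12.0 ± 2.30 UMIs per 10000 in DC 1 (SD, n = 4), 8.04 ± 3.80 in neutrophils, 6.29 ± 4.29 in DC 2, 6.14 ± 1.73 in monocytes, 4.69 ± 0.633 in TAMs and 3.10 ± 0.533 in Tregs (n = 5 each). In NK cells, eosinophils, CD8+ T cells and CD4 cells its means lay between 1.33 and 1.58. The upper part of this order was not stable between tumors, since DC 1 exceeded neutrophils in 2 of 4 tumors and DC 2 exceeded monocytes in 2 of 5, but TAMs exceeded Tregs in 5 of 5 and Tregs exceeded NK cells in 4 of 4. Its neighbor Pdcd1lg2 (chromosome 19, 29410919 to 29471161, plus strand) was at 4.61 ± 1.64 in DC 1 (n = 4) and exceeded DC 2 (1.12 ± 0.344, n = 5) in 4 of 4 tumors. Lymphoid classes came next, with Tregs at 1.06 ± 0.305 (n = 5), NK cells at 0.641 ± 0.351 (n = 4) and CD8+ T cells at 0.603 ± 0.0788 (n = 5), and CD8+ T cells exceeded TAMs (0.367 ± 0.0682) in 5 of 5 tumors. For Pdcd1lg2 the order of DC 2, Tregs, NK cells and CD8+ T cells was within the spread, with the higher class ahead in 2 to 3 of the tumors that held both.

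Of the pair of B7 ligands, Cd80 was highest in granulocytes and Cd86 in DC 2 and TAMs. Cd80 (chromosome 16, 38455561 to 38496335, plus strand) was highest in eosinophils (13.0 ± 1.56 UMIs per 10000) and neutrophils (12.1 ± 3.11, n = 5 each), followed by DC 1 (8.53 ± 1.80, n = 4), DC 2 (5.13 ± 0.960), TAMs (3.30 ± 0.200), monocytes (2.27 ± 0.361) and Tregs (2.18 ± 0.817, n = 5 each). Neutrophils exceeded DC 1 in 4 of 4 tumors, DC 1 exceeded DC 2 in 4 of 4 and TAMs exceeded monocytes in 5 of 5, while eosinophils exceeded neutrophils in 4 of 5 by 0.906 ± 2.33. Among lymphocytes the mean was 0.390 ± 0.0784 in CD8+ T cells and 0.139 ± 0.150 in CD4 cells (n = 5), and Tregs exceeded CD8+ T cells in 5 of 5 tumors. Cd86 (chromosome 16, 36603869 to 36666081, minus strand) was low in granulocytes, at 0.338 ± 0.186 in neutrophils and 0.705 ± 0.326 in eosinophils (n = 5 each). Instead it stood at 26.9 ± 7.19 in DC 2 and 24.8 ± 3.49 in TAMs (n = 5), 13.4 ± 2.53 in DC 1 (n = 4) and 12.0 ± 2.65 in monocytes (n = 5). DC 2 and TAMs were not separated (higher in 3 of 5 tumors), and neither were DC 1 and monocytes (1 of 4), but TAMs exceeded DC 1 in 4 of 4. CD8+ T cells, CD4 cells and Tregs held 1.34 ± 0.164, 1.02 ± 0.760 and 0.999 ± 0.287. B cells are known to express Cd80, Cd86 and Cd40, and the part of the B cell markers of cluster CD4 in its levels was not tested.

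In single cells the detection of Cd86, but not that of Cd80, set granulocytes apart from TAMs and dendritic cells. A Cd80 UMI was found in 134 of 162 control neutrophils (82.7%, exact 95% binomial interval 76.0 to 88.2, counting error only) and a Cd86 UMI in 17 (10.5%, 6.23 to 16.3). In control TAMs 79.5% of 723 cells held Cd80, 95.02% held Cd86 and 77.7% held both. Cd80 was found in 88.7% of 97 DC 1 cells, 81.1% of 95 DC 2 cells and, at a far lower depth, 55.9% of 478 eosinophils, and Cd86 in 95.9%, 94.7% and 4.18%. For comparison, NK cells held Cd80 in 3.74% and Cd86 in 10.3% of 107 control cells at a median of 8736 UMIs, against 4220 UMIs in neutrophils. A background from free RNA was not measured. After thinning to 2000 UMIs per cell the Cd86 share was 5.54% in neutrophils, 2.55% in NK cells and 0.541% in γδT cells. In CD8+ T cells, Tregs and CD4 cells the thinned share was 19.0%, 13.3% and 7.81%. The neutrophil share thus lay within the range of the lymphoid classes, and these differences were not tested. In control DC 1, at a median of 15827 UMIs, 86.6% of 97 cells held both Cd274 and Cd80, and 82.5% held both Cd274 and Pdcd1lg2.

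The nectin ligands were low throughout. Pvr (chromosome 7, 19903578 to 19921160, minus strand) was at 0.943 ± 0.252 UMIs per 10000 in DC 1 (n = 4), 0.798 ± 0.331 in DC 2, 0.578 ± 0.123 in TAMs and 0.548 ± 0.0783 in monocytes (n = 5 each), a group in which neighbors exceeded one another in 2 of 4, 4 of 5 and 4 of 5 tumors. Monocytes exceeded CD8+ T cells (0.288 ± 0.0417, n = 5) in 5 of 5 tumors, and neutrophils, NK cells and eosinophils were at or below 0.0311. Nectin2 (chromosome 7, 19716644 to 19750483, minus strand) reached only 0.0871 ± 0.0427 in TAMs (n = 5), where 79 UMIs were counted in 723 cells. It was at 0 in control neutrophils, CD4 cells and NK cells, where 0 of 162, 0 of 253 and 0 of 107 cells held a UMI, which by the limit of 3 counts allows shares of cells with a UMI of up to 1.85%, 1.19% and 2.80%.

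Galectin-9 and VISTA were lowest in DC 1, where the PD-1 ligands were highest. Lgals9 (chromosome 11, 78962974 to 78984946, minus strand) was highest in monocytes, at 2.01 ± 0.181 UMIs per 10000 (n = 5), which exceeded NK cells (1.21 ± 0.128, n = 4) in 4 of 4 tumors. TAMs (1.06 ± 0.216), eosinophils (1.04 ± 0.282), CD4 cells (0.891 ± 0.236) and neutrophils (0.873 ± 0.325, n = 5 each) were not separated from their neighbors. DC 1 was the lowest class, at 0.0668 ± 0.0406 (n = 4), and lay below Tregs (0.552 ± 0.0968) in 4 of 4 tumors. Vsir (chromosome 10, 60346851 to 60372684, plus strand) was at 2.35 ± 0.165 in TAMs and 2.23 ± 0.229 in monocytes (n = 5 each, TAMs higher in 4 of 5), and eosinophils (1.84 ± 0.386) exceeded neutrophils (1.39 ± 0.480) in 5 of 5. CD8+ T cells held 1.04 ± 0.0724, above DC 2 (0.792 ± 0.229) in 5 of 5 tumors, and DC 1 was again lowest at 0.111 ± 0.131 (n = 4), below NK cells (0.496 ± 0.164) in 4 of 4. DC 1 cells thus held the most Cd274 and Pdcd1lg2 and the least Lgals9 and Vsir of the 10 classes compared, by the mean over tumors.

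Among the costimulatory members outside the B7 pair, Cd40 was highest in dendritic cells, monocytes and macrophages, and Icosl was low throughout. Cd40 (chromosome 2, 165055627 to 165072948, plus strand) was at 2.25 ± 0.922 UMIs per 10000 in DC 1 (n = 4) and exceeded DC 2 (1.01 ± 0.342, n = 5) in 4 of 4 tumors. Monocytes (0.841 ± 0.311) and TAMs (0.668 ± 0.145, n = 5 each) were not separated (higher in 3 of 5), and TAMs exceeded eosinophils (0.108 ± 0.0717) in 5 of 5. The other 5 classes, neutrophils among them, were at or below 0.0634. Icosl (chromosome 10, 78069302 to 78083913, plus strand) ranged from 0.451 ± 0.163 in DC 2 (n = 5) to 0.0855 ± 0.0904 in Tregs (n = 5), with each class ahead of the next in 2 to 3 of the 4 or 5 tumors that held both. The ends of this order did not overlap, with DC 2 at 0.249 to 0.635 and Tregs at 0.0169 to 0.239 in the 5 tumors. An Icosl UMI was found in 42.1% of 95 control DC 2 cells and 3.29% of 486 control Tregs (exact 95% intervals 32.0 to 52.7 and 1.89 to 5.29), and in 8.87% and 0.8292% after thinning.

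**Figure D1:**
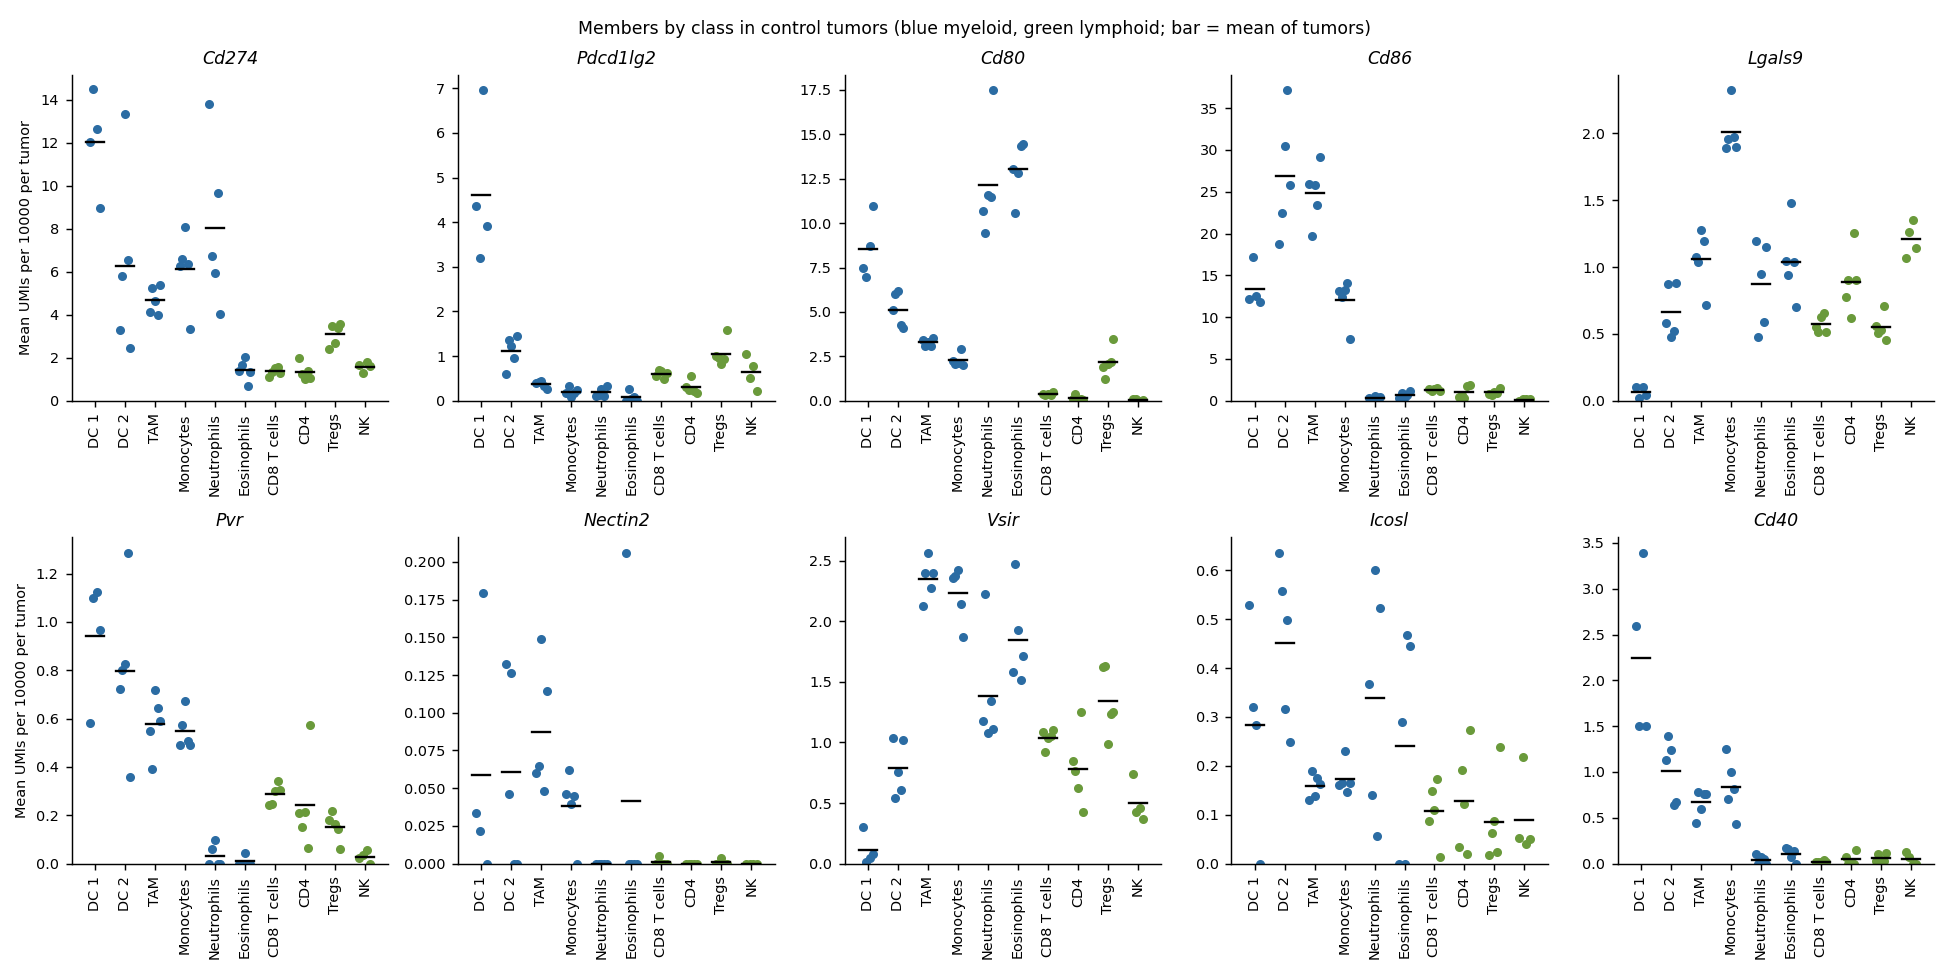
Mean UMIs per 10000 of each of the 10 genes (vertical axis, linear, from 0) in 10 classes of the control tumors (horizontal axis), with 1 point per tumor of at least 10 cells and a bar at the mean. Cd274, Pdcd1lg2 and Cd40 peak in DC 1 (means 12.0, 4.61 and 2.25), Cd80 in eosinophils and neutrophils (13.0 and 12.1), Cd86 in DC 2 and TAMs (26.9 and 24.8), and Lgals9 and Vsir are lowest in DC 1.

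Likeness of pattern was described by Pearson's r of log2(mean UMIs per 10000 + 0.1) over 50 pairs of control tumor and class, among 4545 genes. These pairs share tumors, 1 library and the depth of their class, so no p is given. Cd86 was most like Cd74, the invariant chain of MHC class II (r = 0.925), Tnip3 (0.923) and Alpk1 (0.918), and Cd40 was most like the chemokine Cxcl16 (0.923), Grk3 (0.921) and Rnf180 (0.918). Cd80 was most like Ston2 (0.901), Basp1 (0.901) and Dusp16 (0.880), and Cd274 most like Atp6v0a1 (0.891), Marcks (0.858) and C130026I21Rik (0.853). The genes nearest to Pdcd1lg2 were St8sia4 (0.839), Phlpp1 (0.824) and Zbtb46 (0.808), a transcription factor of conventional dendritic cells that also stands in a marker list used here. Pvr was nearest to Tnip3 (0.864), Ext1 (0.856) and Mtss1 (0.852), Lgals9 to Il17ra (0.837), Myo1f (0.807) and Itgb2 (0.778), and Vsir to Fxyd5 (0.825), Svil (0.813) and Hcls1 (0.810). For the low genes the values were smaller, with Nectin2 nearest to Anpep (0.702), Slc7a2 (0.699) and Asah1 (0.689) and Icosl nearest to Pmaip1 (0.595), Zfp106 (0.556) and Stk38l (0.554). Between the 10 genes themselves, Cd86 and Cd40 (0.850), Cd86 and Pvr (0.804), Pvr and Cd40 (0.735) and Lgals9 and Vsir (0.711) were alike, and Pdcd1lg2 ran opposite to Lgals9 (-0.713) and Vsir (-0.668).

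The effect of GC was then compared within each class, to ask whether the ligands that T cells meet changed with treatment. Changes are log2 differences of GC minus control on log2(mean UMIs per 10000 + 0.1), fitted with limma over all genes whose mean reached 0.2 per 10000, with SE and with p adjusted over all genes tested. A change on this scale understates that of low genes. Monocytes and CD8+ T cells each join 3 clusters, and the part of a shift between these clusters in their changes was not tested. Genes known to be induced by glucocorticoids served as a check of the treatment, and of the 5 listed, 3 of 4 tested rose in CD8+ T cells, 4 of 5 in TAMs and 3 of 5 in neutrophils, and 4 of 5 passed as higher in the 1 GC tumor of the monocytes. Fkbp5, which codes for a co-chaperone of the glucocorticoid receptor, rose by 3.04 ± 0.19 on the log2 scale in TAMs (limma adjusted p = 7.76e-06) and by 1.40 ± 0.22 in CD8+ T cells (0.00486).

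In TAMs Cd80 rose and Pdcd1lg2 fell. Cd80 was at 3.44, 3.10, 3.29, 3.10 and 3.55 UMIs per 10000 in control tumors 1 to 5 and at 5.67 in both GC tumors with at least 10 TAMs (GC 2, 17 cells, and GC 3, 16 cells). GC 5 (7 cells) and GC 4 (3 cells) stood at 6.20 and 8.41, so all 4 GC tumors with TAMs lay above all controls. The log2 change was 0.77 ± 0.11 (limma adjusted p = 0.00123, n = 5 and 2), and edgeR on the UMI sums gave 1.07 (adjusted p = 7.12e-05). Pdcd1lg2 was at 0.389, 0.417, 0.434, 0.323 and 0.271 in controls and at 0.0688 and 0.155 in GC 2 and GC 3, a log2 change of -1.16 ± 0.23 (limma adjusted p = 0.00564), and edgeR gave -2.07 (adjusted p = 0.0145). This fall rests on 9 UMIs in 43 GC TAMs (0.117 per 10000 pooled, exact Poisson interval 0.0537 to 0.223) against 374 UMIs in controls (0.401, 0.361 to 0.444). GC 5, below the cell minimum, held 0.291 and overlapped the controls, and with tumors of at least 5 cells Pdcd1lg2 changed by -0.85 and missed the threshold (limma adjusted p = 0.0559).

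The other members tested in TAMs did not pass the main test. Cd86 was at 19.8 to 29.1 UMIs per 10000 in controls and at 27.4 and 28.4 in GC 2 and GC 3 (log2 change 0.18 ± 0.13, limma adjusted p = 0.352), and Cd274 at 4.01 to 5.40 and at 3.11 and 5.37 (-0.18 ± 0.20, adjusted p = 0.543). Vsir differed by 0.34 ± 0.15, Lgals9 by -0.23 ± 0.21, Pvr by 0.11 ± 0.21 and Cd40 by 0.03 ± 0.27 (limma adjusted p between 0.13 and 0.951), and Nectin2 and Icosl were below the filter. The unadjusted p of Vsir was 0.0448 by limma and 0.0107 by edgeR (edgeR adjusted p = 0.0763), and Vsir passed when the deposited log values were averaged. Cd86 passed by edgeR with tumors of at least 5 cells (0.48, edgeR adjusted p = 0.0385). Of the 8 members tested 2 passed, where 21.2% of all 5988 genes passed by limma and 11.2% by edgeR, so the share of members is near the background. Their median log2 change was 0.07, against -0.12 for all genes by limma and -0.00 by edgeR. That background depended on the scaling, with 411 genes higher and 859 lower by limma and 564 and 618 with median-of-ratios scaling, under which the same 2 members passed. The macrophage list summed to 58.6 and 79.6 per 10000 in the 2 GC tumors and to 54.0 to 73.5 in controls, the neutrophil list to 1.93 and 3.63 against 0.936 to 1.22, and the median depth was 17855 against 12883 UMIs, and their part in these changes was not tested. Without GC 3, Cd274 and Vsir also passed by limma, with log2 changes of -0.57 and 0.59, and the 4 members past the threshold were then read from GC 2 alone.

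At equal depth the detection of Cd80 in TAMs went the same way. A Cd80 UMI was found in 79.5% of 723 control TAMs and 83.7% of 43 GC TAMs (exact 95% intervals 76.4 to 82.4 and 69.3 to 93.2), and in 39.9% and 53.6% after thinning each cell to 2000 UMIs, which kept 710 of 723 control and 43 of 43 GC cells. Both Cd80 and Cd86 were detected in 77.7% of control and 83.7% of GC TAMs.

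In monocytes the comparison rested on 1 GC tumor with 10 cells (GC 3), which limma assumed to vary like the 5 controls. There was no spread between GC tumors, so each p in monocytes rests on the spread of the controls, compares that tumor with them and is no replicated test of GC. Cd40 was at 1.26, 0.702, 1.00, 0.810 and 0.432 UMIs per 10000 in control tumors 1 to 5 and at 0 in GC 3. The limit that 3 counts set in that tumor is 0.189 per 10000, so Cd40 was at least 4.45-fold lower there than the control mean, and it passed by limma (adjusted p = 0.00178, n = 5 and 1) and not by edgeR (adjusted p = 0.0653). Over all 21 GC monocytes of 4 tumors there were 2 Cd40 UMIs against 517 in 449 control cells, a ratio of 0.0647 (exact 95% interval 0.00781 to 0.235, counting error only). A Cd40 UMI was found in 44.1% of control and 9.52% of GC monocytes, and in 15.0% and 1.20% after thinning to 2000 UMIs. In control CD8+ T cells, a class that should lack it (880 cells, median 6826 UMIs), the shares were 1.48% and, thinned, 0.411%.

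Cd274 was at 6.29, 6.62, 8.07, 6.38 and 3.32 UMIs per 10000 in control monocytes and at 1.61 in GC 3, a log2 change of -1.81 ± 0.39 (limma adjusted p = 0.0118). GC 2, with 8 cells, held 4.07 and overlapped the controls, and GC 5, with 2 cells, held 5.06. The share of monocytes with a Cd274 UMI was 70.6% in controls and 71.4% after GC, at median depths of 12584 and 15990 UMIs. When thinned to equal depth it was 45.6% and 35.9%. These GC shares pool the 21 GC monocytes of 4 tumors and do not describe GC 3 alone. Cd80 was at 2.03 to 2.91 per 10000 in controls and at 4.36 in GC 3 (0.92 ± 0.23, limma adjusted p = 0.0216), and GC 2 held 4.95, while the tumors with 1 and 2 cells held 1.39 and 10.7. Pvr was at 0.491 to 0.674 in controls and 1.09 in GC 3 (0.89 ± 0.24, limma adjusted p = 0.0309) and 0.752 in GC 2. Cd86 was at 7.43 to 14.1 in controls, 21.8 in GC 3 and 17.7 in GC 2, and its change missed the threshold (0.88 ± 0.32, limma adjusted p = 0.0756). Lgals9 (-0.06 ± 0.20), Vsir (-0.13 ± 0.21) and Pdcd1lg2 (0.15 ± 0.44) did not pass either.

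Of the 8 members tested in monocytes 4 passed by limma, 2 in each direction, where 23.9% of 5771 genes passed, but 0 passed by edgeR, where 4.89% of genes did. The log2 change by edgeR was 0.89 for Cd80, 1.19 for Pvr, -1.69 for Cd274 and 0.99 for Cd86. DESeq2 gave 0.92, 1.23, -1.65 and 1.02 for the same genes. The minimum was then lowered to 5 cells, which adds GC 2 and was decided with the data in view. Cd80 (1.01, limma adjusted p = 0.00872) and Cd40 (-2.48, adjusted p = 0.00653) passed and Cd274 (-1.17, adjusted p = 0.07) and Pvr (0.64, adjusted p = 0.0884) did not. Of all 5765 genes, 887 passed by limma at that minimum. Pvr also lost its call without control 1, 2 or 4, and Cd86 gained one without control 5. The monocyte list summed to 78.0 per 10000 in GC 3 and to 53.8 to 66.4 in controls, and the neutrophil list to 4.75 against 1.36 to 2.98. The part of these shifts in the calls was not tested.

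**Figure D2:**
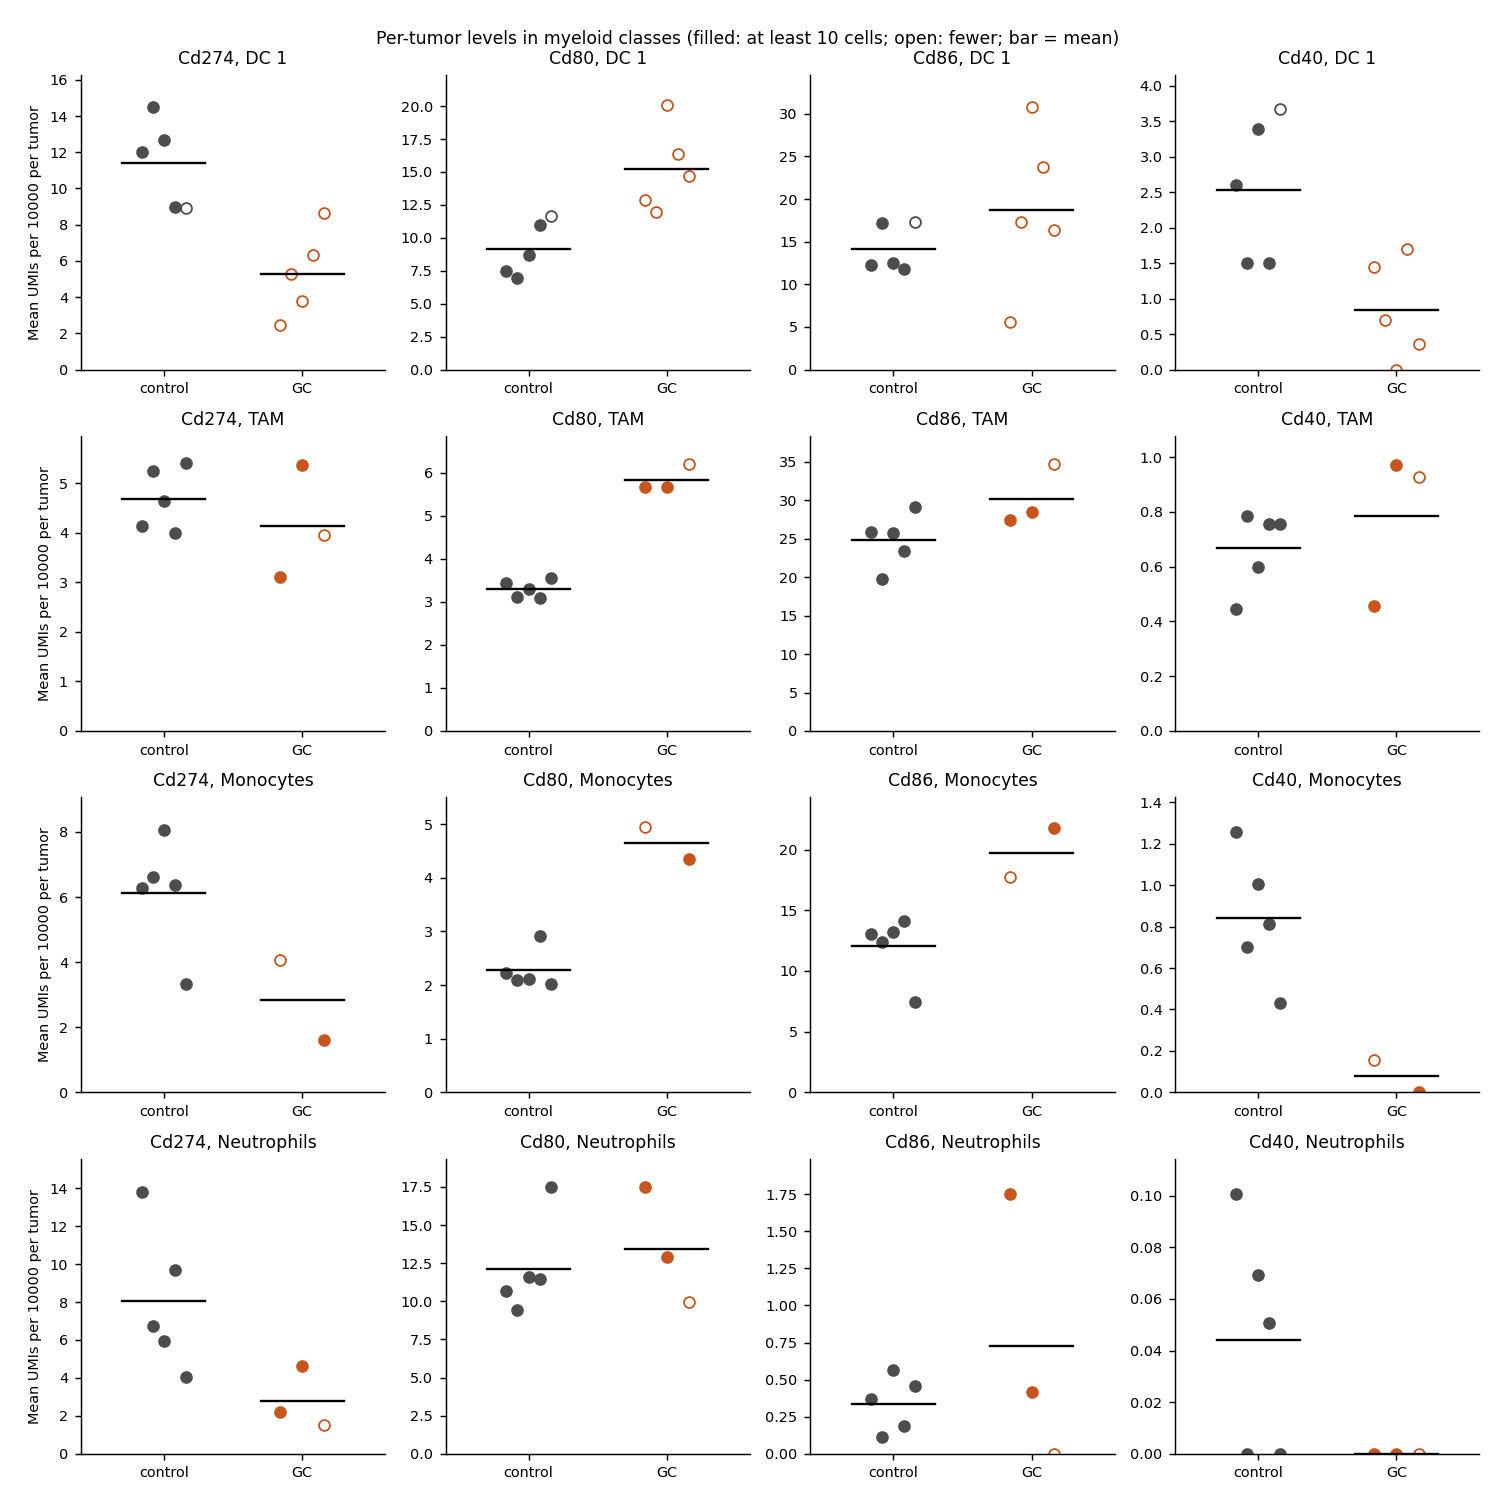
Mean UMIs per 10000 (vertical axes, linear, from 0) of Cd274, Cd80, Cd86 and Cd40 (columns) in DC 1, TAMs, monocytes and neutrophils (rows), with 1 point per tumor, filled with at least 10 cells and open with fewer, and a bar at the mean of the points. All tumors with a cell are drawn for DC 1 and those with at least 5 for the other classes. With these minimums, GC points of Cd80 lie above all control points in DC 1, TAMs and monocytes, and those of Cd40 lie below them in monocytes.

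DC 1 cells hold the highest Cd274, but the GC tumors held only 1 to 3 of them each, 10 in all, so every tumor with a cell was used, a choice made after the data were examined. Cd274 was at 12.0, 14.5, 12.7, 8.95 and 8.93 UMIs per 10000 in control tumors 1 to 5 and at 2.47, 5.29, 3.77, 6.35 and 8.62 in GC tumors 1 to 5. All GC tumors lay below all controls (11.4 ± 2.43 and 5.30 ± 2.37, n = 5 each, exact two-sided permutation p = 0.00794, the smallest that this design allows). Cd80 went the other way, from 7.46, 6.95, 8.72, 11.0 and 11.7 to 12.8, 12.0, 20.1, 16.3 and 14.7, again without overlap (9.15 ± 2.09 and 15.2 ± 3.21, exact permutation p = 0.00794). Cd40 was at 2.60, 1.497, 3.39, 1.502 and 3.66 in controls and at 1.44, 0.705, 0, 1.70 and 0.361 after GC, with overlap at GC 4 (exact permutation p = 0.0317). These 3 were among 7 members tested in this way, and 2 of the 7 did not overlap between groups, against 3.91% of all 5424 genes (57 higher and 155 lower). The other 4, Pdcd1lg2, Cd86, Pvr and Icosl, overlapped between groups (exact permutation p between 0.175 and 0.484).

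In the fit over all genes none of these passed. The log2 changes in DC 1 were -1.19 ± 0.35 for Cd274 (limma adjusted p = 0.0942), 0.73 ± 0.29 for Cd80 (0.237) and -1.96 ± 0.63 for Cd40 (0.13), with unadjusted p under 0.05 for these 3, and 1.24% of genes passed by limma and 2.49% by edgeR. DESeq2 called 1 member, Cd80, and 217 of all 5424 genes. The median change of all genes was -0.28 by limma and -0.12 by edgeR. The mature dendritic cell list summed to 95.8 to 147 per 10000 after GC, against 137 to 167 in controls, and the median depth was 24266 against 15827 UMIs. Their part in these differences was not tested. After thinning, a Cd80 UMI was found in 65.3% of control and 93.4% of GC DC 1 cells, and a Cd274 UMI in 79.8% and 60.3%. Lgals9 was at 0 in all 10 GC cells, which by the limit of 3 counts allows a share of cells with a UMI of up to 30.0%, and the limit of 3 counts, 0.134 per 10000, is above the control mean of 0.0636, so no change was detectable at this depth. In DC 2, with 9 GC cells in 4 tumors, Cd86 was at 18.7 to 37.2 in controls and at 49.5, 45.0, 42.6 and 28.3 after GC, with overlap.

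In neutrophils Cd274 was lower after GC in the tumors with most cells, without passing the main test. It was at 13.8, 6.74, 5.94, 9.67 and 4.06 UMIs per 10000 in control tumors 1 to 5 and at 2.19 and 4.61 in GC 2 and GC 3 (19 and 14 cells), and at 1.52 in GC 5 with 7 cells. The values of GC 3 and control 5 overlapped, and GC 1, with 2 cells, stood at 16.2. The log2 change was -1.18 ± 0.40 (limma adjusted p = 0.122, n = 5 and 2), and edgeR called it (-1.63, adjusted p = 0.0337). Of 6 members tested 0 passed by limma, with Cd274 the only member at an unadjusted p under 0.05, and 1 by edgeR, against 4.83% of 4411 genes by limma and 4.6% by edgeR. With tumors of at least 5 cells Cd274 passed by limma (-1.53, adjusted p = 0.035), and it passed without control 5. Cd80, at 9.43 to 17.5 in controls and 17.5 and 12.9 after GC, did not pass (0.34 ± 0.24, limma adjusted p = 0.48), nor did Cd86 (1.28 ± 0.62), Lgals9 (-0.90 ± 0.51), Vsir (0.33 ± 0.40) or Icosl (-1.02 ± 0.75). The median of the 6 members was -0.29, against 0.03 for all genes. The neutrophil list summed to 401 and 523 per 10000 in GC 2 and GC 3 and to 347 to 594 in controls.

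Eosinophils were read at 721 UMIs per GC cell and in tumors with at least 5 cells (5 control and 3 GC), a choice made after the data were examined. Lgals9 was at 1.04, 0.943, 1.48, 1.04 and 0.704 UMIs per 10000 in control tumors 1 to 5 and at 0 in all GC tumors. None of the 32 GC cells held a Lgals9 UMI, which by the limit of 3 counts allows a share of up to 9.38%, a bound above the 8.996% of 478 control cells, so a lower share was not detectable at this depth. The limit of 3 counts over the GC cells is 0.749 per 10000, against which the control mean of 1.04 makes Lgals9 at least 1.39-fold lower, but control 5, at 0.704, lies under that limit too. Lgals9 passed by limma (adjusted p = 0.0145) and edgeR (adjusted p = 0.0315) and not by DESeq2 (adjusted p = 0.185). Cd80 was at 10.6 to 14.4 in controls and at 10.2, 8.67 and 6.53 in GC 2, GC 3 and GC 5, and at 17.5 in GC 1 with 4 cells. The log2 change of Cd80 was -0.63 ± 0.24 (limma adjusted p = 0.123) and -1.81 by edgeR (adjusted p = 0.000294), where the median of all genes was -0.65 by limma and -0.58 by edgeR. Of 6 members tested 1 passed by limma, against 10.0% of 5345 genes, and 2 by edgeR, against 8.42%. Over all tumors with a cell, the eosinophil list averaged 14.0 per 10000 in controls and 7.71 after GC, and the neutrophil list in these cells 107 and 30.3, and their part in the values of Cd80 and Lgals9 was not tested.

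In CD8+ T cells 0 of 7 members passed by limma and 1 by edgeR, against 5.02% of 6158 genes by limma and 6.17% by edgeR. Cd80 was at 0.372, 0.333, 0.397, 0.328 and 0.521 UMIs per 10000 in control tumors 1 to 5 and at 1.04, 0.489 and 0.919 in GC 2, GC 3 and GC 5, with overlap at GC 3 (0.86 ± 0.25, limma adjusted p = 0.0679). By edgeR it passed (1.01, adjusted p = 0.0316), and it passed by limma without GC 3 (1.15). Pdcd1lg2 was at 0.550, 0.679, 0.673, 0.497 and 0.614 in controls and at 0.985, 1.03 and 0.676 after GC (0.49 ± 0.19, limma adjusted p = 0.164), and the 2 GC tumors with 7 and 9 cells held 1.74 and 1.18. Vsir was at 0.918 to 1.10 in controls and at 0.658, 0.737 and 0.847 after GC, below all controls (-0.43 ± 0.16, limma adjusted p = 0.138), and Cd80, Pdcd1lg2 and Vsir were the members at an unadjusted p under 0.05 by limma. Cd274 (0.38 ± 0.36), Cd86 (-0.31 ± 0.19), Lgals9 (-0.18 ± 0.28) and Pvr (0.21 ± 0.30) did not pass. GC 2, with 12 cells, set the mean of Cd274, at 4.37 against 1.09 and 1.16 in GC 3 and GC 5 and 1.10 to 1.58 in controls. Cd40, Icosl and Nectin2 were below the filter, and 0 of 107 GC cells held a Cd40 UMI, which by the limit of 3 counts allows a share of up to 2.80%.

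The sums of the monocyte and macrophage lists were lower after GC in the same CD8+ T cells. Of the 5 genes of the monocyte list, Ly6c2, Ccr2 and Plac8 are also known from lymphocytes, and its sum averaged 12.5 per 10000 in control Tregs and 9.73 in control NK cells. In CD8+ T cells it summed to 12.0 to 17.4 per 10000 in controls and to 4.56 to 5.11 in the 3 GC tumors with at least 10 cells, with Fn1 and Vcan at 0, and the macrophage list to 0.529 to 1.05 and 0.0943 to 0.266. The median depth was 9741 UMIs after GC against 6826. The part of these lists and of depth in the member values was not tested. The median of the 7 members was 0.21, against -0.09 for all genes, and genes past the threshold split into 140 higher and 169 lower by limma and 167 and 127 with median-of-ratios scaling.

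**Figure D3:**
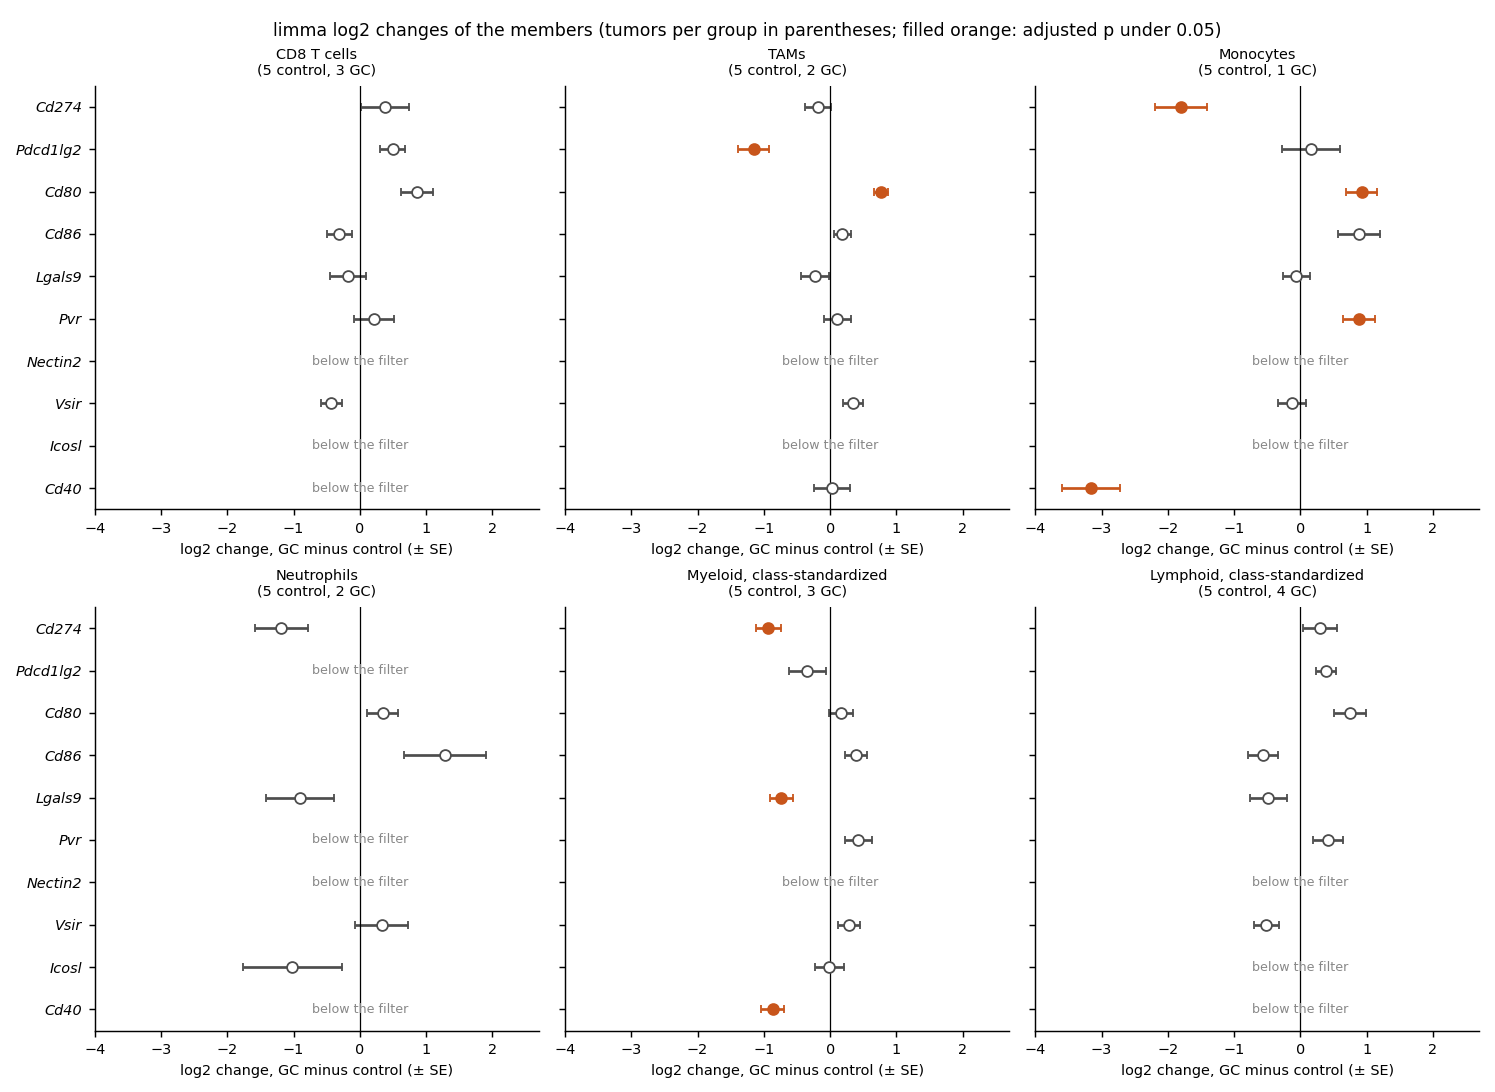
Log2 change of GC minus control by limma with its SE (horizontal axis) for each member (vertical axis) in CD8+ T cells, TAMs, monocytes, neutrophils and the myeloid and lymphoid cells standardized by cluster. Filled orange points passed the threshold, which were Cd80 and Pdcd1lg2 in TAMs, 4 members in monocytes, which have 1 GC tumor and so no spread of that group and where Cd40 was at 0 and its drawn value depends on the added 0.1, and Cd274, Lgals9 and Cd40 in myeloid cells.

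Because few GC tumors held enough cells of 1 class, each tumor's myeloid and lymphoid cells were also compared as a whole. Each tumor was set against the level that its own mix of clusters would have in controls. The observed level of a tumor was set against an expected level, as log2 of observed over expected. The expected level gave each cell the control mean of its deposited cluster, before clusters were joined into classes. Each change is thus an average over clusters, weighted by the tumor's own mix. That mix differed between groups, with neutrophils at 44 of 159 GC and 162 of 2004 control myeloid cells. These fits use the same cells as the classes above and are not independent of them. In myeloid cells (n = 5 and 3) Cd274 stood at -0.12, 0.08, 0.16, -0.09 and -0.24 in control tumors 1 to 5 and at -1.09, -0.76 and -1.08 in GC 2, GC 3 and GC 5, a change of -0.93 ± 0.19 (limma adjusted p = 0.0239). GC 1 and GC 4, with 9 cells each and not in the fit, stood at -0.44 and -1.98, so all 5 GC tumors lay below all controls. Cd40 changed by -0.87 ± 0.17 (adjusted p = 0.0228), with controls at -0.08 to 0.09 and all 5 GC tumors at or below -0.39. Lgals9 changed by -0.74 ± 0.18 (adjusted p = 0.0368), with controls at -0.25 to 0.22 and all 5 GC tumors at or below -0.48. How many of all genes separated the groups in this way was not counted, so this separation has no background beside it.

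These calls were 3 of 9 members tested, against 7.04% of 5970 genes by limma. By edgeR 5 of 9 passed, against 16.2%, with Cd80 (0.66, edgeR adjusted p = 0.00102) and Cd86 (0.41, adjusted p = 0.0134) higher in addition to the same 3. For these genes limma gave 0.16 ± 0.18 for Cd80 (adjusted p = 0.592) and 0.39 ± 0.16 for Cd86 (adjusted p = 0.161). The level in limma counts each cell alike, while the UMI sums in edgeR give deeper cells more weight. The part of this in the difference between the tools was not tested. Pdcd1lg2 (-0.35 ± 0.28), Pvr (0.42 ± 0.20), Vsir (0.28 ± 0.16) and Icosl (-0.01 ± 0.22) did not pass by either, and Nectin2 was below the filter. The limma calls did not hold with tumors of at least 5 cells, where Cd274 changed by -1.03 (adjusted p = 0.159), Cd40 by -0.80 (adjusted p = 0.14) and Lgals9 by -0.80 (adjusted p = 0.168), nor with array weights, nor without any 1 of controls 1 to 4, and Lgals9 also lost its call without GC 2 and Cd40 without the DC clusters. The median of the 9 members was -0.01, against -0.09 for all genes.

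In lymphoid cells (n = 5 and 4) 0 of 7 members passed by limma or edgeR, against 2.21% of 6231 genes by limma and 8.57% by edgeR. Cd80 differed by 0.75 ± 0.24 (limma adjusted p = 0.133), Pdcd1lg2 by 0.38 ± 0.15 (0.201), Vsir by -0.52 ± 0.18 (0.16) and Cd86 by -0.56 ± 0.22 (0.2), and these 4 had an unadjusted p under 0.05 by limma. For Vsir, GC 2 (-0.13) overlapped the lowest control (-0.16), and GC 3, GC 4 and GC 5 lay between -0.93 and -0.35, below all controls. Cd274 (0.29 ± 0.26), Lgals9 (-0.49 ± 0.28) and Pvr (0.42 ± 0.23) did not pass. The GC change in myeloid cells minus that in lymphoid cells of the same tumors (n = 5 and 3) was tested for 7 members, and 0 passed, against 0.242% of 4960 genes. Its largest values were -1.11 ± 0.36 for Cd274 (limma adjusted p = 0.176) and 0.92 ± 0.29 for Cd86 (0.163), and Cd274, Cd86, Pdcd1lg2 (-0.69) and Vsir (0.66) had an unadjusted p under 0.05. A difference in GC effect between the compartments was therefore not shown for any member.

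**Figure D4:**
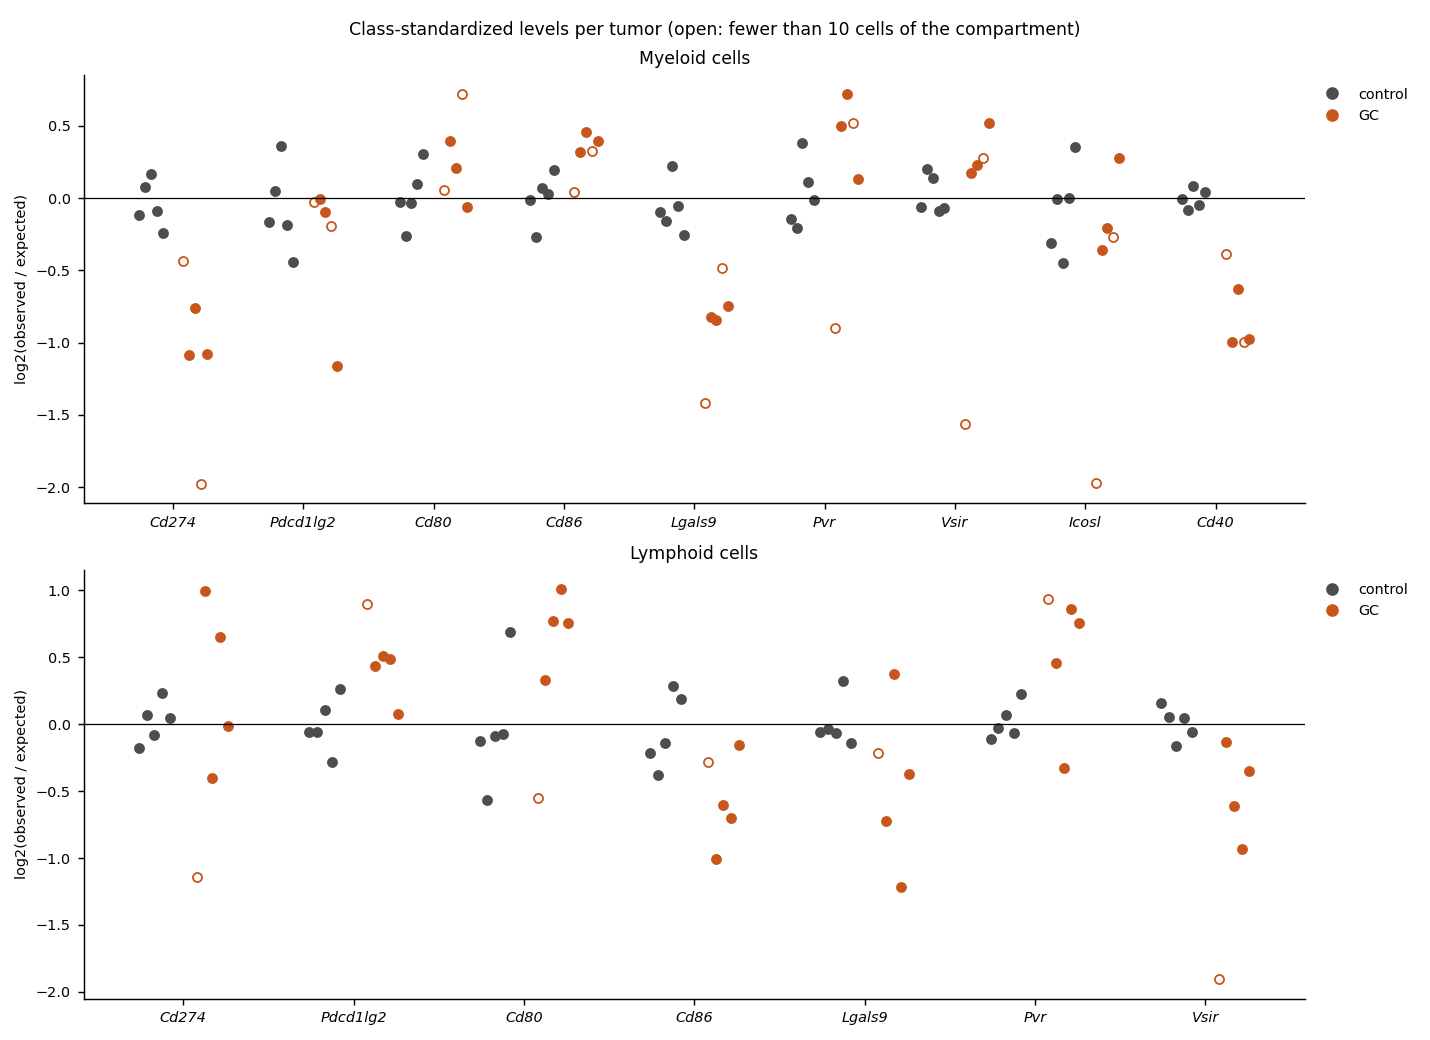
Log2 of observed over expected level (vertical axis) of each member (horizontal axis) in the myeloid and lymphoid cells of each tumor, control in grey and GC in orange, with open points for tumors with fewer than 10 cells of the compartment and a line at 0, the level expected from the control cluster means. In myeloid cells the GC points of Cd274, Lgals9 and Cd40 all lie below the control points. How many of all genes do so was not counted.

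The receptors of these ligands were taken from a list of 10 genes. Of 9 receptor genes tested in CD8+ T cells 4 passed by limma and 5 by edgeR, where 5.02% and 6.17% of all genes did. Pdcd1, which codes for PD-1, was at 4.70 to 6.91 UMIs per 10000 in controls and at 14.8, 12.6 and 15.9 after GC (log2 change 1.23 ± 0.14, limma adjusted p = 0.000715), and Tigit, the inhibitory receptor of CD155, at 0.424 to 0.860 and at 2.51, 1.64 and 1.504 (1.42 ± 0.24, limma adjusted p = 0.00676). Cd226, the activating receptor of CD155, was at 6.91 to 8.50 in controls and at 3.02, 3.64 and 4.83 after GC (-0.97 ± 0.15, limma adjusted p = 0.00408), and Cd40lg, the ligand of CD40, at 0.549 to 1.16 and at 0.412, 0.173 and 0.184 (-1.31 ± 0.30, limma adjusted p = 0.0316). All 4 also passed by edgeR. In lymphoid cells as a whole Tigit (1.48 ± 0.18) and Pdcd1 (1.10 ± 0.18) passed of 9 tested by limma, and 5 passed by edgeR, 3 higher and 2 lower, where 2.21% and 8.57% of all genes did. Havcr2, which codes for TIM-3, a receptor of galectin-9, was the 1 receptor gene tested in TAMs and in monocytes, and rose in TAMs from 1.28 to 1.83 per 10000 in controls to 3.14 and 4.94 in GC 2 and GC 3 (1.28 ± 0.19, limma adjusted p = 0.00145) and in myeloid cells (1.13 ± 0.21), where 1 of 2 passed. In the single GC tumor of the monocytes it was higher by 1.47 ± 0.25. In neutrophils 0 of 2 receptor genes passed.

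Of 13 genes known to control these ligands, 10 to 12 were tested per comparison. Traf3, an adaptor of CD40, was at 3.44 to 4.04 UMIs per 10000 in control TAMs and at 2.08 and 2.75 after GC (-0.60 ± 0.13, limma adjusted p = 0.00951, edgeR 0.0966). It was the 1 called of 12 tested in TAMs by limma, where 21.2% of all genes passed. In monocytes, where the p rests on the controls and 1 GC tumor, 1 passed as higher and 5 as lower of 12 by limma, where 23.9% of all genes passed, and 1 each by edgeR, where 4.89% did. Those of largest change were the NF-κB subunit Rel (-2.29 ± 0.28), Irf1 (-2.26 ± 0.30), an interferon-induced activator of Cd274, Traf3 (-1.34 ± 0.28) and the NF-κB subunit Nfkb2 (-1.33 ± 0.32), of which Rel alone passed by edgeR. In myeloid cells 2 of 12 fell, Nfkb2 (-1.02 ± 0.22, edgeR adjusted p = 0.0709) and Traf3 (-0.69 ± 0.18), in neutrophils 1 of 11, the lineage factor Spi1 (-1.06 ± 0.28), and in lymphoid cells 1 of 10, Irf8 (-1.57 ± 0.32). In CD8+ T cells Irf8 fell (-1.67 ± 0.41) and Nfkb2 rose (0.80 ± 0.19, edgeR adjusted p = 0.0701) of 10. Of all genes, 7.04% passed by limma in myeloid cells, 4.83% in neutrophils, 2.21% in lymphoid cells and 5.02% in CD8+ T cells. The medians of this list were -0.04 in TAMs, -0.55 in monocytes, -0.08 in neutrophils and -0.18 in CD8+ T cells, against -0.12, -0.18, 0.03 and -0.09 for all genes.

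Fewer of the other ligands of these families could be tested. Of the 7 TNF-family costimulatory ligands, 1 to 3 were tested per class, and Tnfsf9, the ligand of 4-1BB, passed in monocytes, at 0.299 to 0.664 per 10000 in controls and 1.78 in the one GC tumor (1.70 ± 0.35, limma adjusted p = 0.00988). Of the 14 other checkpoint, nectin and adhesion ligands, 4 to 6 were tested per class. Cd24a was higher (2.50 ± 0.50) and the adhesion ligand Icam1 lower (-1.30 ± 0.36) in that monocyte tumor by limma, Icam1 not passing by edgeR (adjusted p = 0.273), and Cd48 fell in CD8+ T cells by limma (-0.62 ± 0.16, adjusted p = 0.0492) and not by edgeR (adjusted p = 0.22). In TAMs, neutrophils, myeloid cells and lymphoid cells 0 of either list passed by limma. Of the second list edgeR called 1 in TAMs and myeloid cells each, and it called 1 TNF-family ligand in neutrophils. Of all genes, 11.2%, 16.2% and 4.6% passed by edgeR in TAMs, myeloid cells and neutrophils. Cd200 and Relb stand both in these lists and in the mature dendritic cell markers.

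Several values carry limits from how reads were assigned. Reads in introns were counted, and whether the counting used strand was not given in the sources used here. Vsir lies within Cdh23, on the opposite strand, and Cd274, Pdcd1lg2, Pvr and Nectin2 overlap annotated genes on the opposite strand, so their levels are uncertain to the extent that such reads were shared.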

How the data were processed

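CD45+ cells of 10 tumors were read with a droplet 3' kit, 1 channel per group, and assigned to tumors by hashtag. The authors aligned reads with Cell Ranger 7.1.0 to mm10, counting introns, removed multiplets and low-quality cells, and clustered the cells with R 4.3.1, Seurat 5.0.3 and Partek. The deposited expression values are natural log values of 1 plus UMIs per 10000. From the deposited total count per cell, whole UMI counts were recovered for 100% of 10330441 values above 0 (tolerance 0.01), and every cell summed to its total. The clusters and tumors of the deposited cell table were used, with 16 clusters joined into 12 classes.

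Tumors with at least 10 cells of a class entered the fits. Mean UMIs per 10000 plus 0.1 were taken to log2 and tested with limma 3.58.1 (trend, robust) over genes with a mean of at least 0.2, with Benjamini-Hochberg adjustment and a threshold of 0.05, in R 4.3.3. edgeR 4.0.16 (quasi-likelihood) and DESeq2 1.42.0 on UMI sums per tumor were alternatives, and the scripts were tested on simulated data. Whether the tumors are independent beyond being 1 per mouse is not known, as all share a channel per group. The p-values measure the spread between tumors within these 2 channels. Intervals on shares above 0 are exact binomial at 95%, limits for counts of 0 are 3 counts over the cells or UMIs read, and both cover counting error only. Doublets were not called again.

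All 10 members were named in each comparison, and from each gene list at most 4 called genes of largest change. Members and lists were chosen with earlier results of these data known. One gene of the list of regulators is not reported here and was left out of its counts and medians. The fits with at least 5 cells (edgeR among them) and those in DC 1, DC 2 and eosinophils were added after the data were examined. Positions are from GENCODE vM21 and promoters from RefSeq, both on GRCm38, the build behind mm10.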

Additional observations from a re-analysis of the deposited data

Results flagged for a closer look

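In all, 74 sets of 4 or 5 tumors (1 gene in 1 class) were tested for a single distant value. They were sets of control tumors and, for DC 1, also of GC tumors. Of these 74 sets 7 held one, each among controls, and chance gives about 1 in 20. All are in UMIs per 10000. Pdcd1lg2 in Tregs was 1.59 in control 5, with the next tumor at 0.994. Cd80 was 2.91 in the monocytes of control 4 (next 2.23) and 17.5 in the neutrophils of control 5 (next 11.6). Cd86 was 17.2 in the DC 1 cells of control 2 among tumors with at least 10 cells (next 12.5), and 7.43, the lowest, in the monocytes of control 5 (next 12.4). Lgals9 was 2.33 in the monocytes of control 3 (next 1.97), and Vsir was 2.22 in the neutrophils of control 2 (next 1.34). Their causes were not tested.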

How the results depend on the processing

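Members past the threshold, where the number moved: CD8+ T cells 0 by limma against 1 by DESeq2, edgeR and the mean of the deposited log values, 2 by edgeR with at least 5 cells, and 0 to 1 leaving out a tumor. In TAMs the number was 2, against 1 with at least 5 cells and 2 to 4 leaving out a tumor (4 without GC 3). In monocytes it was 4, against 2 with at least 5 cells by limma or edgeR, 0 by edgeR and 3 to 5 leaving out a tumor. In neutrophils it was 0, against 1 by DESeq2, edgeR (with either cell minimum), limma with at least 5 cells and no filter, and 0 to 1 leaving out a tumor. In myeloid cells it was 3, against 0 with array weights or at least 5 cells, 2 without the DC clusters, 5 by edgeR and 0 to 3 leaving out a tumor. In lymphoid cells it stayed 0 leaving out a tumor.

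Genes past the threshold: in CD8+ T cells 309, against 604 with at least 20 cells, 195 with at least 5, 167 with no filter and 135 to 604 leaving out a tumor. TAMs gave 1270, against 735 by DESeq2, 670 by edgeR, 735 by edgeR with at least 5 cells and 867 to 2117. Monocytes gave 1379, against 325 by DESeq2, 282 by edgeR, 887 with at least 5 cells, 393 by edgeR with at least 5 cells and 1028 to 2296. Neutrophils gave 213, against 390 when deposited log values were averaged, and 105 to 241. Myeloid cells gave 420, against 15 with array weights, 20 with at least 5 cells, 968 by edgeR and 75 to 655. Lymphoid cells gave 138, against 235 with at least 20 cells, 73 with at least 5, 534 by edgeR, 519 by edgeR with at least 5 cells, 339 with a pseudocount of 1, 59 without CD4 and Tregs and 42 to 130. The difference between compartments gave 12, against 0 with array weights or at least 5 cells, 54 with a pseudocount of 1, 6 without the DC clusters, CD4 and Tregs and 0 to 8.

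The class with the highest mean stayed the same for 9 to 10 of 10 members leaving out a tumor and for 8 with the mean of the log values (Cd80 then highest in neutrophils, Cd86 in TAMs) or with pooled cells (Nectin2 in DC 1, Vsir in monocytes). Of 787 alternative values for 52 member values with a test, 688 kept direction and side of the threshold, 37 lost the call and 22 gained it. The other 40, in 16 values, changed sign, and in 0 of these was either value past the threshold. In CD8+ T cells the log2 change of Lgals9 was 0.018 by edgeR, 0.013 by DESeq2, 0.014 when deposited log values were averaged and 0.14 with at least 20 cells, and that of Cd274 then -0.24. In TAMs Cd274 was at 0.062 by edgeR, 0.13 by edgeR with at least 5 cells and 0.076 by DESeq2, Vsir at -0.054 with at least 5 cells, and, when log values were averaged, Lgals9 at 0.030 and Cd40 at -0.057. In monocytes Pdcd1lg2 was at -0.58 by edgeR, Lgals9 at 0.028 with median-of-ratios scaling, and Vsir at 0.14 by edgeR, 0.16 by DESeq2 and 0.022 when log values were averaged. In myeloid cells Icosl was at 0.53 by edgeR and 0.40 by edgeR with at least 5 cells, Vsir at -0.096 with at least 5 cells and Pdcd1lg2 at 0.12 without the DC clusters, and in lymphoid cells Cd274 was at -0.23 with at least 20 cells and -0.0012 with at least 5. Pvr, myeloid minus lymphoid, was at -0.35 with at least 5 cells. Leaving out a tumor, the ranges that crossed 0 were, in CD8+ T cells, -0.24 to 0.71 for Cd274, -0.56 to 0.14 for Lgals9 and -0.10 to 0.62 for Pvr, in TAMs -0.57 to 0.20 for Cd274, -0.48 to 0.0096 for Lgals9, -0.049 to 0.27 for Pvr and -0.44 to 0.50 for Cd40, in monocytes -0.0017 to 0.14 for Pdcd1lg2, in myeloid cells -0.55 to 0.026 for Pdcd1lg2 and -0.20 to 0.12 for Icosl, and -0.30 to 0.53 for Pvr in myeloid minus lymphoid. The cause of these moves was not tested. With at least 20 cells, TAMs, monocytes and neutrophils had no GC tumor and this was not run. No paired analysis was possible because the tumors of the 2 groups share no pairing and hashtag numbers are only names. Depth and cell number limit the GC group, with 305 cells.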
